A study of Drosophila melanogaster with 16 samples.

Results

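Odorant-binding protein (Obp) genes encode small, secreted, soluble proteins. In the fly antenna and taste organs, support cells release them into the lymph around the sensory dendrites, where many bind hydrophobic odorants, tastants or pheromones. The family is not confined to chemosensation: some members are made in fat body, glia or the male reproductive tract, and several are transferred to females in seminal fluid. The members described here were all genes in the deposited count table whose FlyBase symbol, matched by gene identifier, begins with Obp and a digit. There were 51 such genes among 17490. Their symbols chose them, and no expression value was used. The pheromone-binding gene lush belongs to the same family but carries another symbol and was not a member.

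The libraries came from whole Drosophila melanogaster, in pools of 30 flies frozen at 3 to 5 days of age, with males and females kept separate. DGRP_208, a highly inbred wild-derived line, was the control, and 208-ΔA, 208-ΔF and 208-ΔG carried independent CRISPR-Cas9 deletions of the promoter and first exon of Uhg4 in the DGRP_208 background. Uhg4 is a long noncoding RNA gene whose introns host small nucleolar RNAs. Each of the 8 groups of line and sex had 2 libraries, 16 in all. The deletion lines were kept over a CyO balancer because deletion flies of both sexes are sterile, and the zygosity of the pooled flies is not given in the labels. The 2 pools of a group are described as biological replicates, but nothing states that they came from separate cultures, so p-values measure the spread between these pools, which may be partly technical. In whole flies, fewer cells that express a gene and less RNA per cell cannot be told apart.

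Depth ran from 13902521 to 51954693 counts per library. The counts-per-million (CPM) level of Uhg4 was 6.66 and 6.67 in DGRP_208 females and between 0.195 and 0.672 CPM in the 6 deletion female libraries. In males it was 1.89 and 0.974 CPM in DGRP_208 and between 0.213 and 1.02 CPM in the deletion lines, so 2 deletion male libraries lay above 1 control library. The log2 difference was -3.87 in females (edgeR adjusted p = 0.00473) and -1.40 in males (edgeR adjusted p = 0.9001). All CPM values here are scaled by TMM factors (trimmed mean of M values, edgeR). By the markers Yp1 and Mst57Db, a pair of libraries held transcripts of the other sex. 208-ΔA male replicate 2 had 183 CPM of the yolk protein gene Yp1, against 3.98 to 28.5 CPM in the other male libraries. 208-ΔF female replicate 2 had 33.3 CPM of the seminal gene Mst57Db, against 0.844 to 1.96 CPM in the other female libraries. The median level of 186 chemoreceptor genes (Or, Gr and Ir), most of which are active in few cells, ran from 0.350 to 5.81 RPKM (CPM divided by the gene length in kilobases). It was 0.350 to 0.930 in the 4 libraries of 208-ΔA and 2.86 to 5.81 in the 4 of 208-ΔG, with no overlap, and libraries of 1 group differed up to 5.62-fold. This level moved with many Obp values, and its part in the differences between lines was not tested beyond the fit that holds it constant.

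The Obp genes lie on chromosome arms 2R (29 members), 3R (12), X (6), 2L (2) and 3L (2), many in tandem clusters. Their positions are given on dm6, the build named in the submitters' processing notes, and the lengths in the count table equalled the exon lengths of that annotation for all 51 members. Reads were found in all 16 libraries for 42 members and in none for 4: Obp47b, Obp50b, Obp50c and Obp57d. Those 4 have no exonic base of their own. Obp50b and Obp50c (2R:14371186-14373006, plus strand) share all 1648 exonic bases with each other, the 1488 of Obp57d lie within other exons on its strand, and the 611 of Obp47b lie under exons on the opposite strand. Across the genome, 385 of 386 genes wholly covered on the same strand and 119 of 121 wholly covered on the opposite strand had no count, against 107 of 11962 genes with no overlap. Reads in shared exons were therefore not assigned to either gene, strand was not used to separate them, and a count of 0 for these 4 members says nothing of their expression. Several others were counted on part of their exons: 83 bases of Obp56e, 99 of Obp93a and 154 of Obp84a were free of other genes, so their levels per length are underestimated and uncertain. Smaller stretches were shared in Obp44a, Obp59a, Obp69a, Obp73a, Obp83cd, Obp83ef and Obp99c. All 47 members with reads had a median count of at least 2 and entered the tests.

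The family took up 0.0632% to 0.0805% of all counts in the female libraries and 0.124% to 0.158% in the male libraries, with no overlap. A few genes carried most of it. The 10 members with the highest mean level per length over all libraries, the same 10 for each library, held between 62.1% and 88.8% of its Obp counts.

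Per length, the highest mean level over all libraries was that of Obp99c (3R:29685736-29689311), a gene expressed widely in the body: 295 ± 111 RPKM in females and 368 ± 159 RPKM in males (SD, n = 8 each). Obp56g, a male reproductive tract gene, was next because of the males alone, with 30.2 ± 4.78 RPKM in females and 573 ± 244 RPKM in males (SD, n = 8 each). Obp44a, known from glia, had 51.5 ± 17.3 RPKM in females and 329.7 ± 132 RPKM in males. The antennal gene Obp19d followed with 111.0 ± 33.5 and 118 ± 41.1 RPKM, and the taste gene Obp57c with 89.6 ± 9.22 and 89.2 ± 9.94 RPKM. Places 6 to 10 were held by Obp99a, Obp56d, Obp19b, Obp51a and Obp56a, whose means over the 16 libraries were 69.2, 55.0, 51.8, 45.03 and 35.8 RPKM. From Obp99c to Obp56a the ranges of neighbours in this order overlapped. At the other end, Obp57e, Obp84a, Obp93a and Obp56b had at most 15 reads in any library, and their values rest on counting noise.

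**Figure D1:**
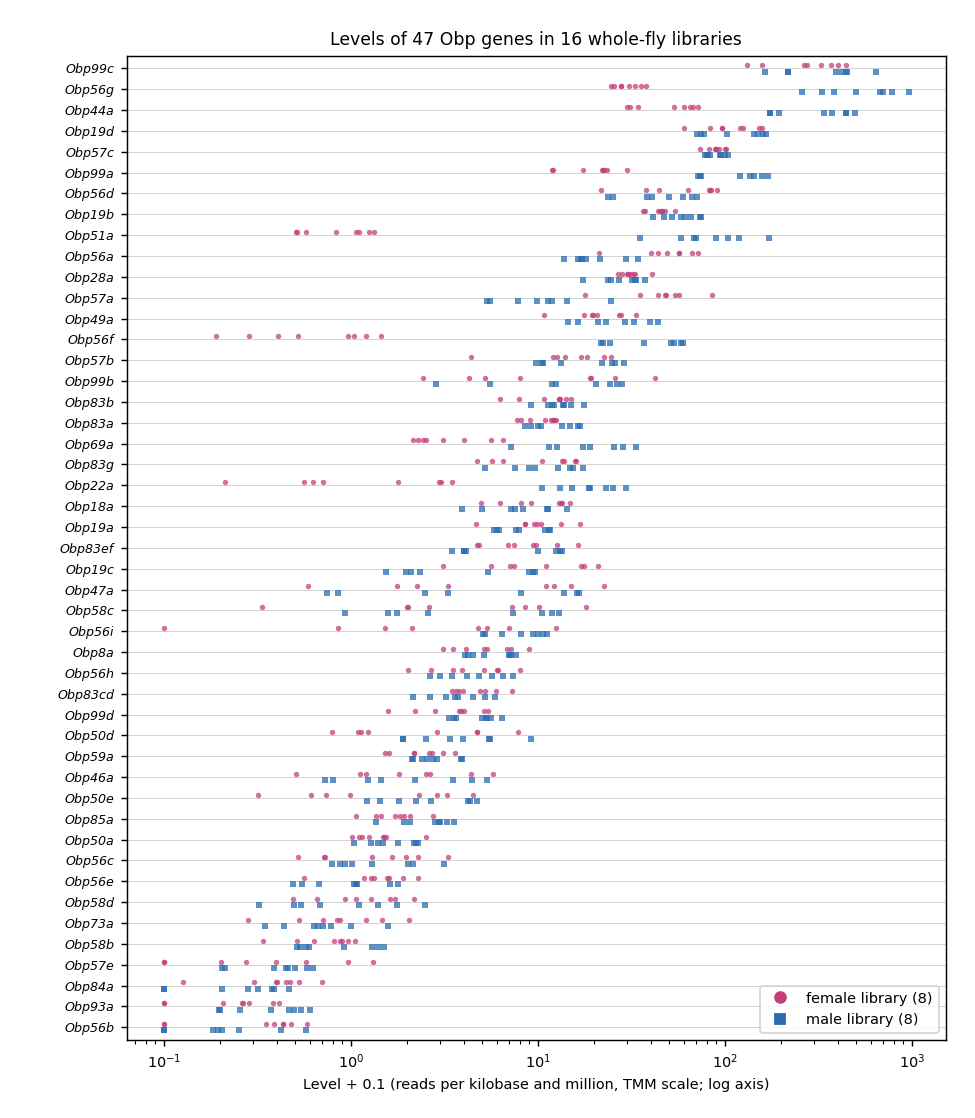
Levels of the 47 Obp genes with reads, ordered by mean level. The horizontal log axis gives RPKM plus 0.1 (circles, 8 female libraries; squares, 8 male libraries). Male and female libraries stand apart for Obp56g, Obp44a, Obp99a, Obp51a, Obp56f, Obp69a and Obp22a, while those of Obp57c and Obp19d lie together.

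Males were compared with females across all 4 lines (the Sex term). Of the 47 members tested, 9 were higher and 3 lower in males at an adjusted p under 0.05 (edgeR quasi-likelihood test, Benjamini-Hochberg over 16212 genes). Among all genes tested 20.8% were higher and 19% lower, or 39.8% in either direction. The sizes were uneven. In 7 members every male library lay above every female library (12.8% of all genes did), and in 0 did every male library lie below (5.41% of all genes).

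Seminal fluid and male reproductive tract genes made up the top of this list. Obp51a (2R:15024375-15024839) had 0.163, 0.337 and 0.488 CPM as lowest, median and highest of the 8 female libraries and 13.9, 31.8 and 68.4 CPM in the 8 male libraries. The female values rest on 2 to 19 reads, and the groups did not overlap. Its log2 fold change was 6.69 ± 0.32 (SE), with an adjusted p of 2.9e-07 by edgeR. Obp56f ran from 0.0474 to 0.715 CPM in females and from 11.4 to 31.3 CPM in males, a log2 difference of 6.31 ± 0.27 (edgeR adjusted p = 1.7e-07). Farther along the same arm, Obp56g (2R:19783484-19784043) was at 12.1, 14.4 and 18.6 CPM in females and at 127, 291 and 474 CPM in males. Obp56g thus had a clear level in every female library, unlike Obp51a and Obp56f. The log2 fold change of Obp56g was 4.17 ± 0.20 (edgeR adjusted p = 3.1e-07). Male over female ratios of group means for Obp56g were 21.1 in DGRP_208, 23.6 in 208-ΔA, 18.0 in 208-ΔF and 11.8 in 208-ΔG. Obp22a ran from 0.0817 to 2.44 CPM in females and from 7.57 to 21.3 CPM in males, with a log2 fold change of 3.91 ± 0.42 (edgeR adjusted p = 2.2e-05). The highest female values of Obp22a, 2.44, 2.12 and 2.09 CPM, were in both 208-ΔG libraries and in 208-ΔF replicate 2.

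The other 3 genes of the seminal fluid list did not pass the test. Obp56i was 1.27 log2 units higher in males (95% interval 0.01 to 2.54, unadjusted p = 0.0489, edgeR adjusted p = 0.107), with 0 to 12.6 CPM in females and 5.08 to 11.4 CPM in males. Obp8a and Obp56e had log2 differences of 0.13 and -0.61. As a whole the 7 genes of that list, 4 of which were called higher, had a median log2 difference of 3.91, against -0.03 over all genes. Their summed level was 19.8 to 33.6 CPM in females and 175 to 607 CPM in males. Among females it was highest in 208-ΔF replicate 2 (33.6 CPM) and 208-ΔG replicate 1 (33.1 CPM). A list of other seminal fluid proteins summed to 240 and 188 CPM in those libraries. It summed to 125 CPM in 208-ΔG replicate 2, 102 CPM in DGRP_208 replicate 1 and 44.9 to 67.3 CPM in the other females. For comparison, all 32 tested genes of that list were higher in males, with a median log2 difference of 6.38.

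Genes of the body and haemolymph list came next. Obp44a (2R:8134170-8135315) was at 32.0, 60.7 and 76.9 CPM (lowest, median, highest) in females and 187, 384 and 533 CPM in males. No male library reached down to the females, and the log2 fold change was 2.65 ± 0.21 (edgeR adjusted p = 2.5e-06). Obp99a (3R:29671657-29672334) ran from 7.19 to 18.3 CPM in females and from 43.7 to 104 CPM in males, a log2 difference of 2.52 ± 0.21 (edgeR adjusted p = 3.7e-06). The male over female ratio of Obp99a was 6.10 in DGRP_208, 8.53 in 208-ΔA, 7.45 in 208-ΔF and 2.79 in 208-ΔG, and that spread between lines did not pass the Line by Sex test (unadjusted p = 0.0705, edgeR adjusted p = 1). The other genes of the cluster at 99 on 3R did not share this difference: the log2 values of Obp99b, Obp99c and Obp99d did not pass the test, and Obp99b ran from 1.39 to 24.95 CPM in females and from 1.64 to 16.6 CPM in males. Obp56d was 0.40 log2 units lower in males (95% interval -0.75 to -0.06, edgeR adjusted p = 0.0631), which missed the threshold.

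Of the 8 antennal genes, Obp69a (3L:12396171-12396957) was called. Its expression is known to change with social experience in flies. Its lowest, median and highest levels were 1.11, 1.48 and 3.49 CPM in females and 3.87, 9.87 and 18.2 CPM in males, and its log2 fold change was 2.47 ± 0.25 (edgeR adjusted p = 1.3e-05). The other 7, Obp19a, Obp19d, Obp28a, Obp59a, Obp83a, Obp83b and Obp84a, did not pass. Obp28a, abundant in basiconic sensilla, had 15.4 to 23.2 CPM in females and 9.99 to 21.5 CPM in males, and Obp19d had 66.3 to 173 and 77.5 to 182 CPM. The median log2 difference of the antennal list was 0.15. Among 22 genes of olfactory transduction and antennal support cells, such as the co-receptor Orco, 0 differed between the sexes at an adjusted p under 0.05 (edgeR), with 0 at an unadjusted p under 0.05.

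All 3 decreases were in the taste list, of whose 12 tested genes 3 were lower and 1, Obp19b, higher in males. Among all genes 19% were lower and 20.8% higher. The median log2 difference of the taste list was 0.01, against -0.03 over all genes. Obp57a (2R:20505150-20505758), expressed in gustatory sensilla, was at 9.91, 26.8 and 47.5 CPM in females and at 2.94, 5.88 and 13.6 CPM in males. The ranges met at 1 male library, 208-ΔA replicate 2 (13.6 CPM), the male library with yolk protein transcripts, above 1 female library, 208-ΔG replicate 1 (9.91 CPM). Its log2 fold change fell by 2.19 ± 0.22 (edgeR adjusted p = 1.5e-05), and the female over male ratio was 4.30 in DGRP_208, 3.68 in 208-ΔA, 4.82 in 208-ΔF and 5.73 in 208-ΔG. The adjacent genes Obp57b and Obp57c, which lie just upstream of it on the same strand, did not differ by the test: Obp57c had 40.8 to 56.3 CPM in females and 43.3 to 57.5 CPM in males. Obp56a, known from the mouthparts, ran from 11.5 to 39.2 CPM in females and from 7.44 to 18.8 CPM in males, a log2 change of -1.25 ± 0.21 (edgeR adjusted p = 0.000625). Obp19c, with 2.94 to 20.3 CPM in females and 1.40 to 9.33 CPM in males, had a log2 change of -1.14 ± 0.36 (edgeR adjusted p = 0.0264). That call was lost in 11 of 27 alternatives, over which the adjusted p ran from 0.000715 to 0.0809, the highest being without the pair of libraries that held transcripts of the other sex. The neighbouring Obp19b was 0.39 ± 0.12 log2 units higher in males (edgeR adjusted p = 0.0187), and 4 alternatives lost this call, at adjusted p values up to 0.0575. Obp85a, a Plus-C gene, had a log2 change of 0.58 ± 0.21 and an edgeR adjusted p of 0.0491, lost in 20 of 27 alternatives (adjusted p 0.0214 to 0.165).

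**Figure D2:**
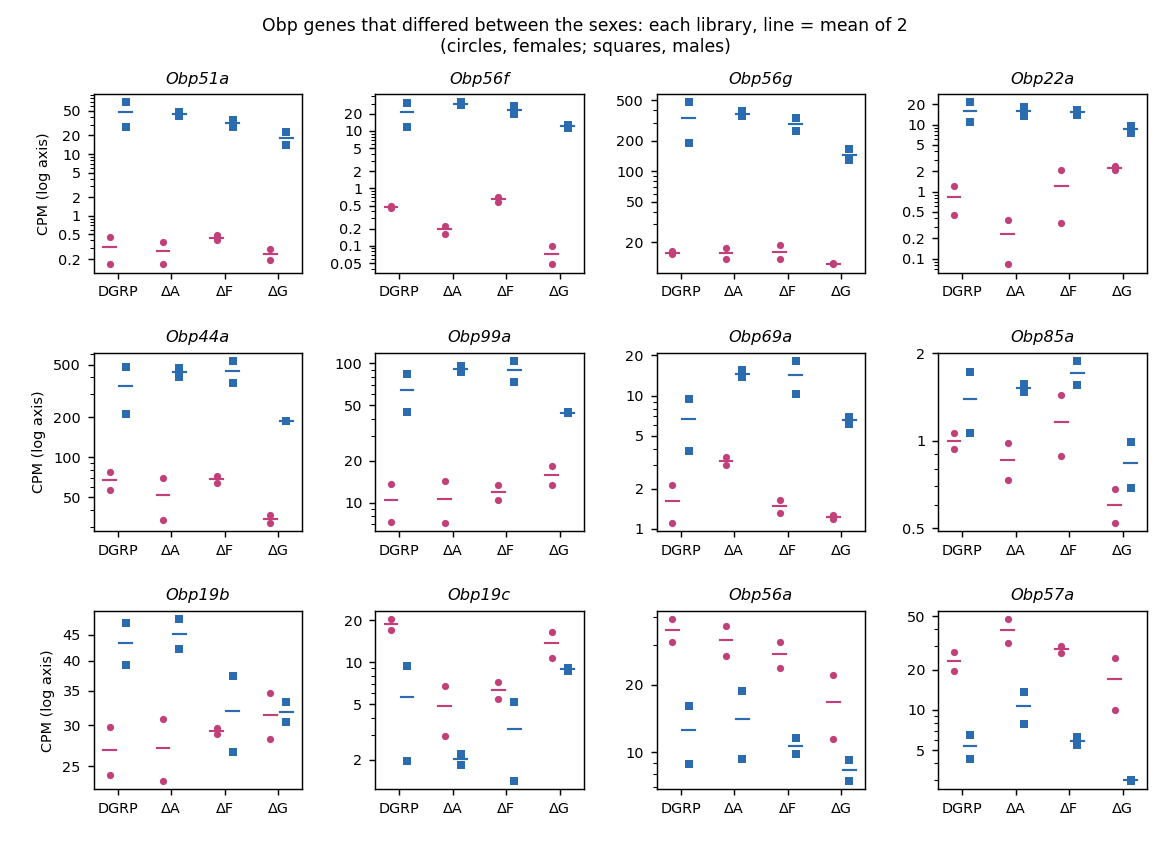
The 12 Obp genes called between the sexes, in CPM on log axes that differ between panels, by line. Circles are female and squares male libraries, and each short line is the mean of 2. The sexes do not overlap for Obp51a, Obp56f, Obp56g, Obp22a, Obp44a, Obp99a and Obp69a, and they do for Obp85a, Obp19b, Obp19c, Obp56a and Obp57a.

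The fit with the chemoreceptor level as a covariate kept all 12 calls and made 5 more. Obp56i, Obp50d, Obp50e and Obp49a were then higher in males, by 1.495, 0.70, 0.82 and 0.31 log2 units, and Obp56d was lower, at -0.39. Over all genes this fit called 55.1% instead of 39.8%. Without the pair of libraries with other-sex transcripts, 10 members were called.

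The question the study asked of these libraries was which genes change when Uhg4 is deleted. In females, the mean of the 3 deletion lines was compared with DGRP_208, and 0 of 47 Obp genes passed an adjusted p of 0.05 (edgeR), against 0.13% of all genes tested. At an unadjusted edgeR p under 0.05 there were 4 members, against 613 of 16212 genes. DESeq2, limma-voom and a linear model fitted gene by gene called 0 members as well. The median log2 difference of the members was -0.10, against -0.01 over all genes. Obp56d came nearest. It was at 76.0 and 83.1 CPM in DGRP_208 females, 77.8 and 76.4 CPM in 208-ΔA, 58.5 and 40.6 CPM in 208-ΔF, and 19.97 and 34.6 CPM in 208-ΔG. The 208-ΔA libraries lay beside the control and those of 208-ΔG well below it. Its log2 difference in females was -0.76 (95% interval -1.30 to -0.22, unadjusted p = 0.0103, edgeR adjusted p = 0.795). The other 3 with an unadjusted p under 0.05 were Obp56f (-1.19), Obp57e (-2.52) and Obp19c (-1.31), with edgeR adjusted p values of 0.9004, 1 and 1, and the first pair have few reads in females.

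Obp19c is the member whose female libraries separated most plainly by genotype: 17.1 and 20.3 CPM in DGRP_208, against 2.94 and 6.79 CPM in 208-ΔA, 5.40 and 7.21 CPM in 208-ΔF, and 16.6 and 10.7 CPM in 208-ΔG. All 6 deletion libraries were below both controls, though 16.6 and 17.1 CPM are close. In males there was no such order, with 1.95 and 9.33 CPM in DGRP_208. Obp56b also had all 6 deletion female libraries below both controls, on at most 9 reads. Such separation downward was seen in 2 of 47 members and in 2.92% of all genes.

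In males, 0 Obp genes passed the test (edgeR), against 0.0617% of all genes. At an unadjusted edgeR p under 0.05 there were 0, against 477 of 16212 genes, and the other 3 tools also called 0 members. Here Obp93a had all 6 deletion libraries above both controls, on 3 to 12 reads against 2 and 2, and 2.76% of all genes separated that way. A separation in the other direction was seen in 0 members in females (upward, 1.61% of all genes) and in 0 in males (downward, 1.54% of all genes). Averaged over the sexes, 0 members passed (0.117% of all genes), and 3 had an unadjusted edgeR p under 0.05 (711 of 16212 genes). These averaged log2 differences ran from -1.38 to 0.81 with a median size of 0.18. The 95% interval of this averaged difference lay within a 2-fold change for 29 of the 47, as it did for 14 in females and 18 in males. For those genes a larger difference lies outside the interval. For the others, the libraries do not bound the difference that closely. Obp57c had an interval from -0.14 to 0.52 in females.

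**Figure D3:**
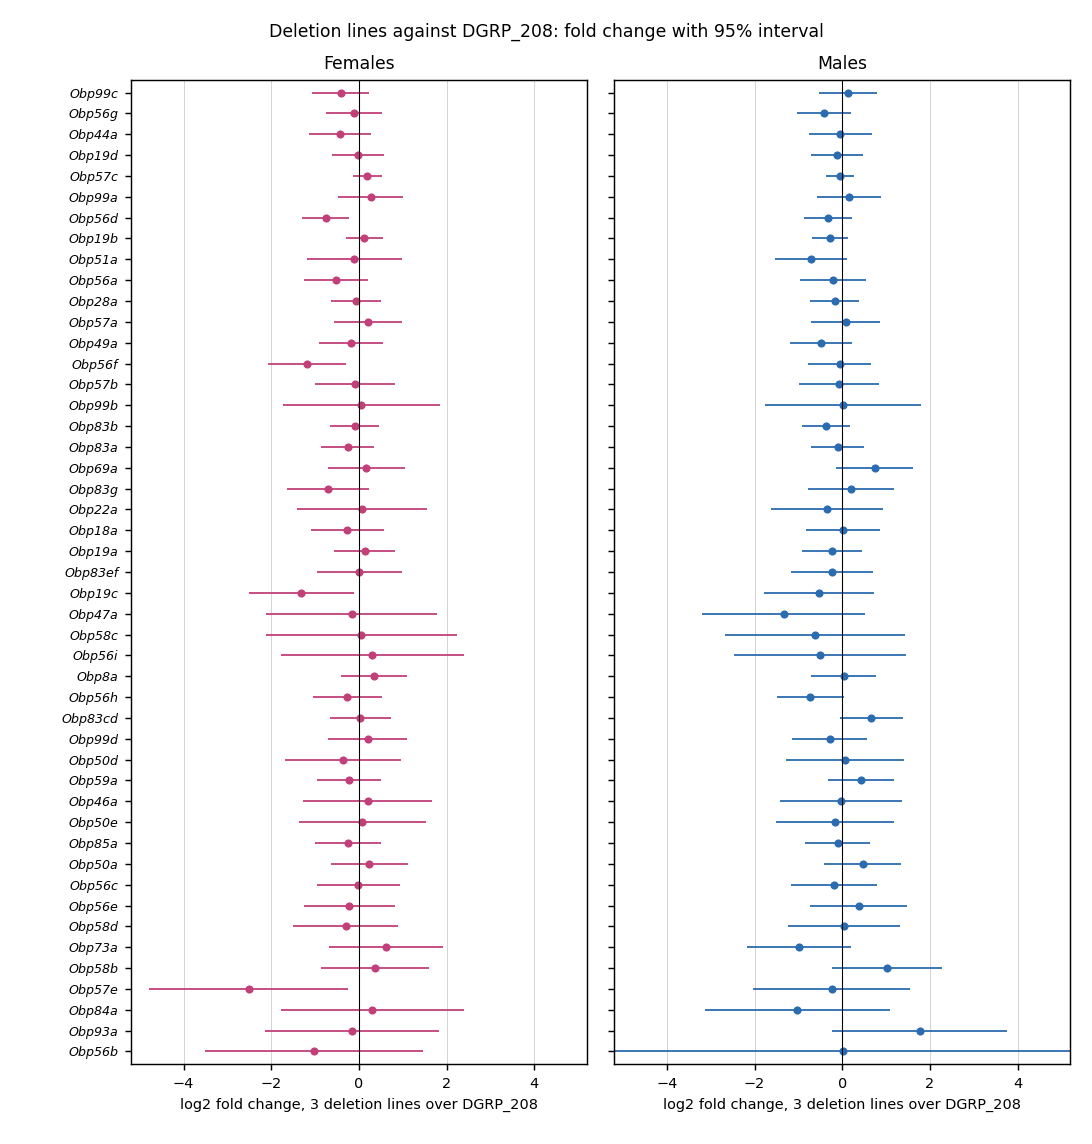
Log2 fold change of the mean of the 3 deletion lines over DGRP_208 for 47 Obp genes, in females and in males, with the 95% interval from the edgeR standard error. Most intervals include 0 in both sexes, 0 genes passed the adjusted test, and the interval of Obp56b in males runs past the axis.

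The Line term asks whether any of the 4 lines differ. At an adjusted p under 0.05 it called 0 Obp genes (edgeR, 0.191% of all genes), though 24 had an unadjusted p under 0.05 (8165 of 16212 genes). At an adjusted p under 0.1 it called 24 of 47, against 50.7% of all genes, so this count sits at the level of the genome. DESeq2 called 26 and limma-voom 16 at 0.05, and the gene-by-gene linear model 0. Shares of all genes are not given for these fits or for those with a library left out. Their counts are therefore not read as a result about the family. Left out one at a time, 5 libraries brought the count above 0: omitting replicate 2 of the DGRP_208 males gave 22 called members and omitting replicate 1 of those males gave 21. Among females, omitting replicate 2 of 208-ΔF gave 13, replicate 2 of 208-ΔG gave 5 and replicate 1 of 208-ΔF gave 1. With the chemoreceptor level in the edgeR fit, 0 were called and 8 had an unadjusted p under 0.05 (1665 of 16212 genes). The Line by Sex term called 0 members (edgeR, 0% of all genes), and none of the other 3 tools called a member. At an unadjusted edgeR p under 0.05 there were 3 members (Obp56f, Obp22a and Obp57e), against 736 of 16212 genes.

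Taken line by line against DGRP_208, 208-ΔA and 208-ΔF each gave 0 called Obp genes (edgeR, 0.167% and 0.074% of all genes). At an unadjusted edgeR p under 0.05 there were 9 and 3 members, against 2483 and 820 of 16212 genes. DESeq2 called 2 for 208-ΔA and 0 for 208-ΔF. 208-ΔG gave 1, Obp56d, against 0.271% of all genes, and 5 at an adjusted p under 0.1, against 10.7%. Obp56d in males was at 61.5 and 34.98 CPM in DGRP_208, 54.5 and 65.3 CPM in 208-ΔA, 37.5 and 46.3 CPM in 208-ΔF, and 23.1 and 21.8 CPM in 208-ΔG. In both sexes the 208-ΔG libraries were the lowest. Averaged over the sexes, its log2 fold change in 208-ΔG was -1.32 ± 0.22 (edgeR adjusted p = 0.0440). Holding the chemoreceptor level constant gave -0.89 with an adjusted p of 0.312, and the call was lost in 22 of 27 alternatives, over which the adjusted p ran from 0.000115 to 0.312. The number of members called in 208-ΔG was 17 without DGRP_208 male replicate 2, the control library with the highest chemoreceptor level (3.37 RPKM), and 3 without 208-ΔG female replicate 2, and 0 without any 1 of the other 14 libraries. The shares of all genes called with those libraries left out are not given, so these counts are not read as a result about the family. These comparisons share their control libraries.

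Of the contrasts of lines that were fitted, 208-ΔG against 208-ΔA called the most members. There, 14 Obp genes were higher and 13 lower, 27 of 47 in all, where 57.9% of all genes were called (27.8% higher and 30.1% lower). Both lines carry a deletion of the promoter and first exon of Uhg4. The count was 17 without 208-ΔA female replicate 1 and 16 without 208-ΔG female replicate 1. With libraries scaled by their totals alone, which shifts this contrast upward by 0.72 log2 units, 23 members were higher and 5 lower, so the split depends on the scaling and only changes relative to the bulk of genes are described here. The median size of the log2 differences was 1.09.

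The members that were higher in 208-ΔG were mostly scarce. Obp47a had 0.245 and 1.59 CPM in 208-ΔA females and 0.322 and 0.375 CPM in 208-ΔA males, against 11.2 and 7.47 CPM in 208-ΔG females and 6.83 and 8.20 CPM in 208-ΔG males. The lines did not overlap, and the log2 difference was 3.84 ± 0.88 (edgeR adjusted p = 0.0103). DGRP_208 overlapped both lines, with 6.03 and 0.827 CPM in its 2 female libraries and 1.60 and 7.9996 CPM in its 2 male libraries. Obp58c, a Plus-C gene at 2R:22705872-22706678, rose by 3.03 ± 0.90 log2 units (edgeR adjusted p = 0.0171), from 0.163 to 1.75 CPM in 208-ΔA to 6.97 to 12.4 CPM in 208-ΔG. Of the 11 tested genes in the Plus-C and dimer list, 6 were higher in 208-ΔG and 0 lower, with a median log2 difference of 1.74. That count holds for the list as drawn. It leaves out Obp49a, which was placed in the taste list and was lower in 208-ΔG (edgeR adjusted p = 0.0137). Others that were higher were Obp50e (2.33), Obp99b (2.27), Obp46a (2.25), Obp50d (2.24), Obp56c (2.06) and Obp58d (1.98).

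The members that were lower in 208-ΔG included 6 of the 10 most abundant, the exceptions being Obp57c, Obp99a, Obp19b and Obp51a, which did not pass the test. Of these 6, Obp56g, Obp44a and Obp56a did not pass with libraries scaled by their totals alone. Their log2 differences were then -0.11, -0.18 and -0.13 (edgeR adjusted p = 0.661, 0.506 and 0.644). The gene-by-gene linear model lost the same calls (adjusted p = 0.126, 0.0899 and 0.0641). Obp19d was at 173, 167, 157 and 176 CPM in the 4 libraries of 208-ΔA and at 66.3, 91.3, 77.5 and 82.0 CPM in those of 208-ΔG, a log2 difference of -1.09 ± 0.23 (edgeR adjusted p = 0.0102). Obp99c was 1.33 ± 0.26 log2 units lower (edgeR adjusted p = 0.0100), and Obp57a, Obp56d, Obp57b and Obp56f were lower by log2 values of -1.53, -1.46, -1.45 and -1.42. These genes span taste, body and seminal fluid roles. Genes of muscle and photoreceptors, all 10 of each list, were lower in 208-ΔG as well, by medians of -1.24 and -0.99 log2 units. The other lists were mixed: 1 gene was higher and 10 lower of 16 for fat body, 2 and 5 of 10 for glia, 0 and 3 of 32 for other seminal fluid proteins, and 0 and 3 of 14 for eggshell and yolk. For testis 0 of 7 passed (edgeR) and 0 had an unadjusted p under 0.05, and the median was 0.50 log2 units. Of the olfactory transduction list, 15 were higher and 3 lower among 22. Orco was at 6.50 to 15.8 CPM in 208-ΔA and 43.3 to 66.2 CPM in 208-ΔG, with 9.98 to 47.1 CPM in DGRP_208.

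Some Obp genes varied much less as a ratio to the chemoreceptor level of the library than as a level. Obp46a, as RPKM of all counts, spanned a 25.1-fold range over the 16 libraries, while its ratio to the chemoreceptor level spanned 2.14-fold. For Obp56c the spans were 13.99-fold and 2.46-fold, for Obp83ef 8.90-fold and 2.63-fold, and for Obp99b 32.9-fold and 2.84-fold. Of the 42 members with reads in every library, 16 (38.1%) varied less as this ratio than as a level, as did 32.2% of the other genes. At the other extreme, Obp19d spanned 1.49-fold and Obp57c 2.10-fold as levels on this scale, but 23.7-fold and 10.3-fold as ratios. What sets the chemoreceptor level in a library was not tested.

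**Figure D4:**
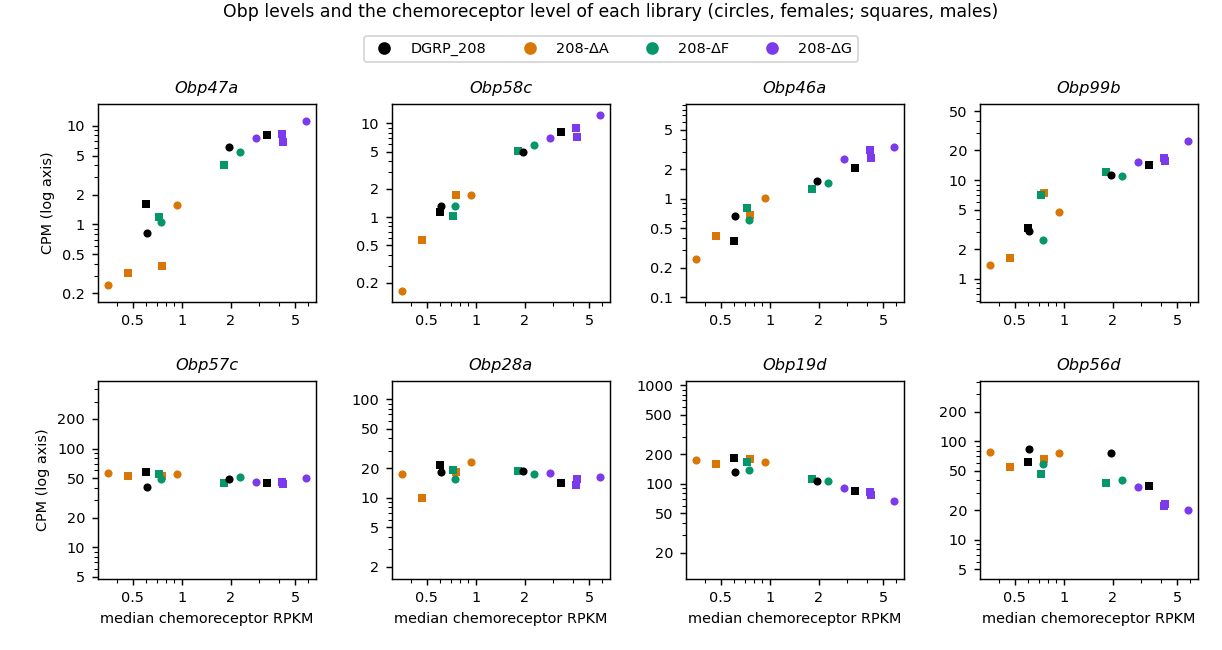
Levels of 8 Obp genes in CPM (TMM scale) against the median chemoreceptor level of the library in RPKM (library totals, no TMM factors). Both axes are log, and the 16 libraries are coloured by line. Obp47a, Obp58c, Obp46a and Obp99b climb with the chemoreceptor level within DGRP_208 as well as across lines, Obp57c and Obp28a stay level, and Obp19d and Obp56d descend.

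Changes in the same directions appeared between replicate libraries of a single genotype. Each pair was read from the library with the lower chemoreceptor level to the one with the higher, whichever its replicate number. Of the 27 members called between 208-ΔG and 208-ΔA, all 27 changed in that direction from DGRP_208 male replicate 1 to replicate 2, whose chemoreceptor levels differ 5.62-fold, as did 96.3% of the genes called genome-wide. In DGRP_208 females 24 of 27 members did (93.05% of called genes), in 208-ΔF females 24 (95.7%), in 208-ΔF males 26 (88.1%) and in 208-ΔG females 24 (94.05%). In 208-ΔA females it was 19 of 27 (81.5% of called genes) and in 208-ΔA males 17 (60.2%). In 208-ΔG males, whose 2 libraries had nearly equal chemoreceptor levels, it was 9 of 27 (40.97%). As a share, the members lay above the called genes in the males of DGRP_208, 208-ΔA and 208-ΔF and below them in the other groups. From DGRP_208 male replicate 1 to replicate 2, the median log2 change was 1.53 for members higher in 208-ΔG and -1.10 for those lower. Obp99b, 1 of the genes that followed the chemoreceptor level closely, was at 3.24 and 14.3 CPM in those male libraries. In the 2 DGRP_208 female libraries it was at 11.4 and 3.03 CPM.

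With the chemoreceptor level as a covariate, 0 of 47 members differed between 208-ΔG and 208-ΔA (edgeR, 0% of all genes). At an unadjusted edgeR p under 0.05 there were 3 members, against 690 of 16212 genes. The median size of the members' log2 differences fell from 1.09 to 0.34. Since that level did not overlap between these lines, line and chemoreceptor level cannot be told apart in this contrast.

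**Figure D5:**
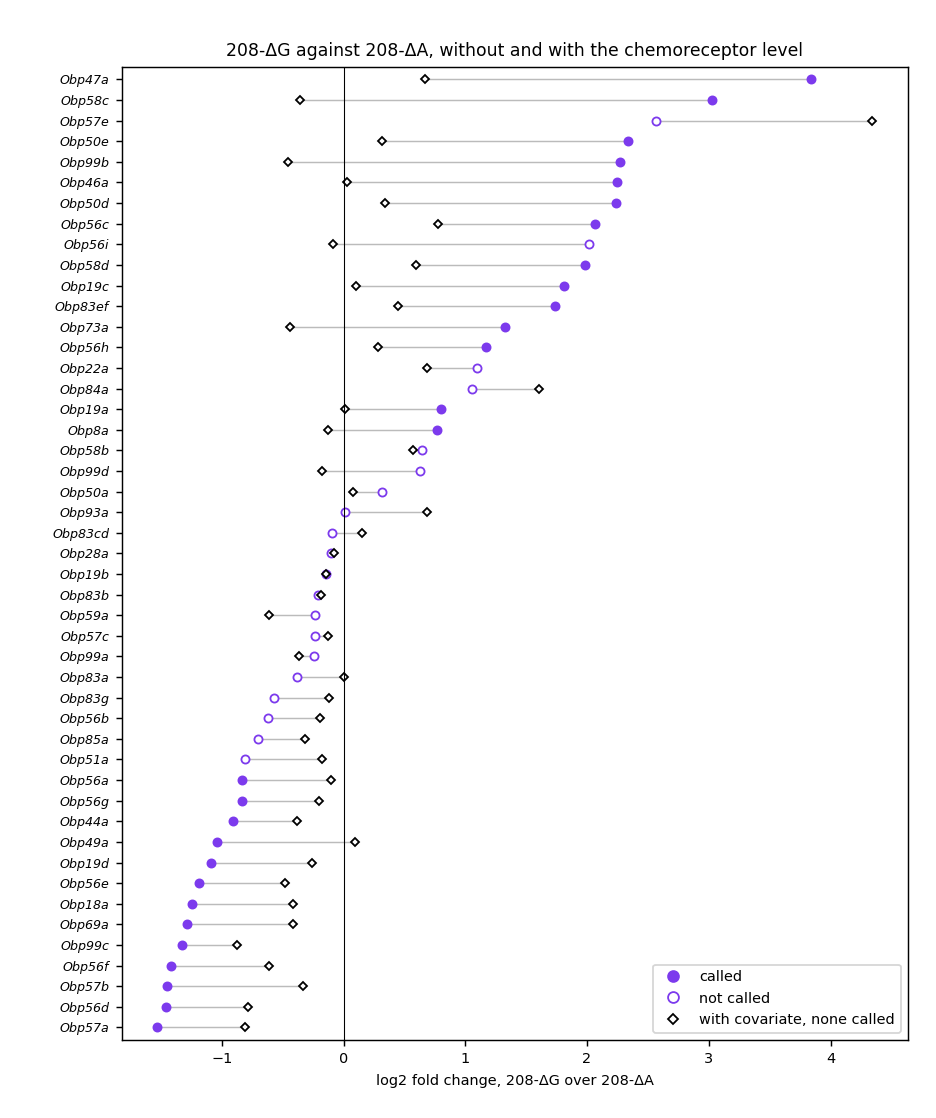
Log2 fold change of 208-ΔG over 208-ΔA for 47 Obp genes, from the fit without (circles, filled where called) and with (diamonds) a chemoreceptor covariate. Filled circles mark 27 genes from Obp47a at 3.84 to Obp57a at -1.53, and the diamonds, none of them called, mostly lie nearer to 0.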

How the data were processed

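Whole-fly total RNA, depleted of ribosomal RNA, was sequenced by the authors from 16 libraries. Reads were filtered with AfterQC, aligned with GSNAP to dm6 and counted per gene with featureCounts of the Subread package (unique alignments). The deposited values used here are these raw counts per gene, with the gene length, in 1 table.

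Counts were fitted with edgeR 4.0.16 (R 4.3.3) by the quasi-likelihood F-test with TMM scaling, 1 mean for each of the 8 groups and 8 residual degrees of freedom, for the 16212 genes whose median count was 2 or more, with Benjamini-Hochberg adjustment over all of them and a threshold of 0.05. Contrasts were Sex, Line, Line by Sex, the deletion lines against DGRP_208 by sex and averaged, single lines against DGRP_208, and 208-ΔG against 208-ΔA. The 95% intervals use the standard error and the moderated degrees of freedom of that test. RPKM here is CPM per kilobase of the tabulated length. The chemoreceptor covariate is the log2 median RPKM of 186 Or, Gr and Ir genes, scaled by library totals without TMM factors. DESeq2 1.42.0, limma-voom (3.58.1), a linear model fitted gene by gene to length- and TMM-scaled values, other scalings and filters, a replicate block and the omission of single libraries were alternatives. The fit was tested on simulated data. A count of 3 corresponded to 0.0577 to 0.216 CPM, and counting noise is only part of the error. All 16 columns matched a library.

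Named genes were every member called in a comparison with DGRP_208, Line or Line by Sex, the leading members for Sex, the 10 with the highest mean level and the antennal, seminal fluid and body lists. Membership followed from symbols alone, but the family was taken up, and the lists drawn, with earlier results of these data known. Members named for 208-ΔG against 208-ΔA alone were chosen after their values were seen, as were those in counts of 5 or fewer.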

Additional observations from a re-analysis of the deposited data

How the results depend on the processing

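The directions of all 12 calls between the sexes held under the 27 alternatives run for each, and 9 of the 12 stayed past the threshold in all of them, the exceptions being Obp85a, Obp19b and Obp19c. Single libraries left out moved the number of members called for Sex, 12, to 9 to 14. With a library left out, the lone remaining library of its group was assumed to vary like the other groups. For Line, 0 members were called, against 24 at an adjusted p under 0.1, 13 with library size alone, 26 with DESeq2, 16 with limma-voom, and 0 to 22 with single libraries left out. For 208-ΔA against DGRP_208, DESeq2 called 2. For 208-ΔG against DGRP_208, where 1 was called, 5 were called at an adjusted p under 0.1 and with DESeq2, and 0 with size factors of DESeq2, with no filter, with filterByExpr, with limma-voom, with a linear model of each gene's GeTMM values (counts scaled by length, then TMM), with the replicate block, with the chemoreceptor level as covariate and without the libraries that hold transcripts of the other sex. Single libraries left out gave 0 to 17. For 208-ΔG against 208-ΔA, 0 were called with the covariate and 16 to 29 with single libraries left out. The covariate reversed Obp99b (-0.46), Obp8a (-0.12), Obp49a (0.092), Obp73a (-0.44) and Obp58c (-0.36) in log2 units. The cause of these changes was not tested. Shares of all genes are not given beside the counts under these alternatives, which are not read as results about the family.

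Replicate numbers did not pair the libraries: deviations from group means of same-numbered libraries correlated at -0.77 to 0.60 over 28 pairs of groups, over 0.1 in 8. With the replicate block 11 members were called for Sex and 26 for 208-ΔG against 208-ΔA. At a floor of 3 counts, 0.0577 to 0.216 CPM, the levels of Obp56b, Obp57e, Obp84a and Obp93a are not resolved.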
